A study of Sus scrofa with 120 samples.

Results

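The genes described here are 44 genes of DNA replication and cell division, out of 31907 genes in a table of RNA sequencing counts from pig chondrocytes, the cells that make and keep cartilage matrix. They are textbook cell cycle genes, but the list was chosen with earlier results of these data known. Of them, 38 were found by the symbol in the table. The other 6 (MKI67, CCNE1, BUB1B, AURKA, RRM2 and NUSAP1), whose lines carried no symbol, were found by their gene identifier. Of the 44, 18 act at the start of DNA synthesis or during it and are called S phase genes here, and 26 act in mitosis or cytokinesis and are called mitotic genes. All 44 passed the filter on low counts, except that PRC1 was not tested in the TRPV4 experiment at 3 h.

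A cell that commits to divide first builds the replication machinery. Cyclin E (CCNE1, CCNE2) and the transcription factor E2F1 drive entry into S phase, CDC6 loads the MCM2 to MCM7 helicase onto origins, CDC45 and MCM10 activate it, and PCNA holds the polymerase on DNA. RRM2, TYMS and TK1 supply nucleotides, and UHRF1 and CDCA7 belong to the machinery that maintains DNA methylation. Later the cell switches on CDK1 with cyclin B (CCNB1, CCNB2), the mitotic kinases PLK1, AURKA, AURKB, NEK2, TTK and BUB1, spindle motors such as KIF11, and ANLN and ECT2, which build the cleavage furrow. E2F factors drive the first group and FOXM1 and B-MYB (MYBL2) much of the second. Chondrocytes of mature articular cartilage divide rarely, whereas isolated chondrocytes kept in serum can re-enter the cycle.

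The study asked which genes chondrocytes switch when drugs or deformation open TRPV4 and PIEZO1, 2 channels that let calcium in. Primary cells from pig femoral cartilage were cast in 2% agarose and kept in medium with serum, and each of 30 groups had 4 libraries. In the TRPV4 experiment (48 libraries) the constructs received cyclic compression to 10% deformation for 3 h (loading), loading with the TRPV4 antagonist GSK205 (10 uM), GSK205 alone, the TRPV4 agonist GSK101 (1 nM), the inflammatory cytokine IL-1 (1 ng/mL), or DMSO vehicle without loading. In the PIEZO1 experiment (72 libraries) cells received siRNA against PIEZO1 (siPIEZO1) or a non-targeting siRNA (siNTC) in wells before casting, or were left non-transfected (NT). Each state was then compressed once to 80% deformation, treated with the PIEZO1 agonist Yoda1 (5 uM), or kept in vehicle. Harvests in both experiments were at 3 h and 9 h, counted from stimulus onset. The labels and the design text disagree on the unit of the GSK205 and Yoda1 doses, and the design text's unit is used. The labels do not say whether the libraries of a group come from different animals. P-values thus reflect the scatter among these libraries and no more, and that scatter may be technical.

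Levels are given in CPM, a gene's counts as a share of the scaled library total, fold changes as log2 values ± their standard error, and a gene counts as changed when its adjusted p in edgeR's quasi-likelihood test was under 0.05, with no minimum fold. The 2 experiments used different library kits, and no level is compared between them. Total counts ran from 20651530 to 80223797 per library in the TRPV4 experiment and from 36807992 to 66240251 in the PIEZO1 experiment. The cartilage markers COL2A1, ACAN and HAPLN1 were abundant in every library, COL2A1 at no less than 33199 CPM in the TRPV4 experiment and 3474 CPM in the PIEZO1 experiment. Of the same list, MATN3 (0.80 to 7.53 CPM) and CNMD (16.8 to 145 CPM) were far lower in the PIEZO1 experiment. Fibroblast markers were present too. In the PIEZO1 experiment COL3A1 reached 1258, COL1A2 1012 and COL1A1 394 CPM, while PI16 never exceeded 1.19 CPM. In the TRPV4 experiment COL3A1 reached 982 CPM and COL1A1 19.9 CPM. Of the leukocyte list, PTPRC, CD3E, AIF1 and TYROBP never exceeded 0.56 CPM, CD68 and CSF1R reached 4.01 and 3.49 CPM, and CD14 ran from 3.91 to 95.5 CPM over all libraries. Of the endothelial list, CDH5 and KDR never exceeded 1.34 CPM, while PECAM1 reached 5.8, TIE1 5.63 and VWF 3.97 CPM. A few libraries stood apart in single genes or sums. Replicate 1 of siPIEZO1 vehicle at 3 h was low in MCM3 (28.3 CPM against 65.3 to 74.0 in the other 3) but highest of its group in the summed mitotic level (446 CPM against 400 to 443 CPM), and replicate 2 of siNTC Yoda1 at 3 h was low in PCNA (126 CPM against 196 to 228). Replicate 1 of DMSO at 3 h was high in mitotic genes (summed level 125.6 CPM against 92.5 to 98.2).

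A mix of 3 siRNAs was used against PIEZO1, whose product is a mechanically gated cation channel. They are the designed sequences that set the siPIEZO1 libraries apart from the siNTC libraries, and are shown 5′ to 3′ as RNA, as the labels give them, with no part in capitals.
siPIEZO1a: cagcgagaucucgcacuccauc
siPIEZO1b: uacgaccugcugcagcuccug
siPIEZO1c: acccgcuggccaugcaguucuu

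PIEZO1 itself had 4.22, 5.01, 4.68 and 5.18 CPM in siPIEZO1 vehicle libraries at 3 h, against 3.71, 5.10, 6.99 and 6.73 CPM in siNTC and 5.69, 6.65, 5.48 and 4.83 CPM in NT. At 9 h it had 2.24, 4.25, 4.52 and 2.80 CPM in siPIEZO1, against 6.48, 6.36, 5.31 and 3.80 CPM in siNTC and 5.34, 4.17, 4.42 and 4.24 CPM in NT. The siPIEZO1 and siNTC libraries overlapped at both times. The difference was -0.24 ± 0.19 at 3 h (adjusted p = 0.58, edgeR) and -0.66 ± 0.23 at 9 h (adjusted p = 0.062), and PIEZO1 passed the test only between Yoda1-treated cells at 3 h (-0.72 ± 0.19, adjusted p = 0.020). The transcript therefore gives no firm check of the knockdown, and directions below refer to the libraries labelled siPIEZO1.

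Taken over all members, the largest median change and the most uniform direction lay between transfected and non-transfected cells. Single genes changed by more elsewhere, such as CDCA7 with IL-1 at 9 h (-5.24). In siNTC vehicle cells at 3 h, 38 of the 44 genes were higher than in NT vehicle cells and 0 were lower, where 4.15% of all genes tested were higher and 7.53% changed in either direction. They were 15 of the 18 S phase genes, with a median change of 0.99 over all 18, and 23 of the 26 mitotic genes, with a median of 1.38 over all 26. All 44 estimates were above 0, while the median over all genes tested was 0.00. At 9 h 37 genes were higher and 0 lower (2.67% of all genes higher, 5.3% in either direction), 13 of them S phase genes (median 0.80) and 24 mitotic (median 1.24).

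Among the mitotic genes at 3 h, TTK, a kinase of the spindle checkpoint, had 1.92, 1.90, 1.39 and 2.49 CPM in siNTC vehicle libraries, against 0.434, 0.146, 0.435 and 0.300 CPM in NT vehicle. ANLN, an actin-binding scaffold of the cleavage furrow, had 37.7, 34.2, 34.7 and 47.1 CPM in siNTC, against 8.22, 8.81, 10.5 and 10.9 CPM in NT. For both genes each siNTC library lay more than 3-fold above the highest NT library. ANLN differed by 2.00 ± 0.18 (adjusted p = 5.5e-10, edgeR) and TTK, a far less abundant transcript, by 2.53 ± 0.50 (adjusted p = 0.00062). KIF20A, a kinesin of cytokinesis, was higher by 1.77 ± 0.20, the centrosome kinase gene NEK2 by 1.64 ± 0.20 and cyclin B2 (CCNB2) by 1.58 ± 0.18.

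The core mitotic engine followed. CDK1 had 25.8, 29.6, 28.7 and 27.3 CPM in siNTC vehicle at 3 h, against 14.7, 10.4, 13.2 and 10.4 CPM in NT vehicle. Cyclin B1 (CCNB1) had 36.7, 33.1, 27.5 and 37.1 CPM in siNTC, against 13.8, 12.4, 11.0 and 9.73 CPM in NT. TOP2A, the topoisomerase that untangles sister chromatids, had 29.8, 30.1, 25.3 and 46.0 CPM in siNTC, against 13.3, 11.1, 10.3 and 10.3 CPM in NT. None of these 3 genes overlapped between the groups, and they differed by 1.20 ± 0.17, 1.52 ± 0.19 and 1.54 ± 0.19. The proliferation marker MKI67 had 1.33, 1.44, 3.45 and 3.21 CPM in siNTC, against 1.01, 0.706, 0.712 and 0.961 CPM in NT (1.47 ± 0.32, adjusted p = 0.0019, edgeR). Its siNTC libraries also lay above those of NT, but spread over more than a 2-fold range. The 3 mitotic genes that did not pass at 3 h were CENPE, PRC1 and FOXM1, and FOXM1, the mitotic transcription factor, had an estimate of 1.56 ± 0.57 (adjusted p = 0.097).

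Most S phase genes were higher too, with the smaller median given above, and whether they differ in this from the mitotic genes was not tested. CDCA7 had 13.5, 16.4, 16.7 and 15.2 CPM in siNTC vehicle at 3 h, against 6.00, 4.45, 4.41 and 6.33 CPM in NT vehicle (1.54 ± 0.18). The helicase subunit gene MCM3 had 77.2, 90.1, 86.5 and 82.3 CPM in siNTC, against 31.4, 33.7, 38.1 and 38.4 CPM in NT (1.25 ± 0.16). PCNA had 237, 263, 223 and 214 CPM in siNTC, against 171, 167, 164 and 155 CPM in NT (0.51 ± 0.10). The groups were apart in every library for each of the 3, and PCNA changed by the least of them. E2F1 was higher by 1.53 ± 0.39, MCM10 by 1.37 ± 0.15 and UHRF1 by 1.36 ± 0.27. The 3 S phase genes that did not pass were CCNE1, TYMS and TK1. Cyclin E1 (CCNE1) had 1.75, 2.24, 2.03 and 1.28 CPM in siNTC, against 1.64, 1.27, 1.25 and 1.20 CPM in NT, and these libraries overlapped (0.45 ± 0.28, adjusted p = 0.40). Its partner CCNE2 did pass, at 0.76 ± 0.17 (adjusted p = 0.0029).

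At 9 h the same comparison was led by NEK2, with 11.9, 11.7, 11.5 and 14.2 CPM in siNTC vehicle, against 2.63, 3.34, 2.68 and 3.95 CPM in NT vehicle (1.96 ± 0.25). The kinetochore gene CENPF (1.76 ± 0.20), MKI67 (1.61 ± 0.36), PLK1 (1.61 ± 0.33) and TTK (1.60 ± 0.40) came next. Of the S phase genes, thymidine kinase 1 (TK1) was higher by 1.44 ± 0.44 at 9 h (adjusted p = 0.046, edgeR) and CDC6 by 1.41 ± 0.32. CDC6 had 4.83, 6.41, 7.32 and 8.21 CPM in siNTC at 9 h, against 3.01, 0.466, 3.33 and 3.21 CPM in NT. RRM2 (1.31 ± 0.13), E2F1 (1.28 ± 0.27) and MCM4 (1.09 ± 0.15) completed the leading 5. CCNE1 was the 1 member with an estimate below 0 at 9 h (-0.25 ± 0.45, adjusted p = 0.87).

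**Figure D1:**
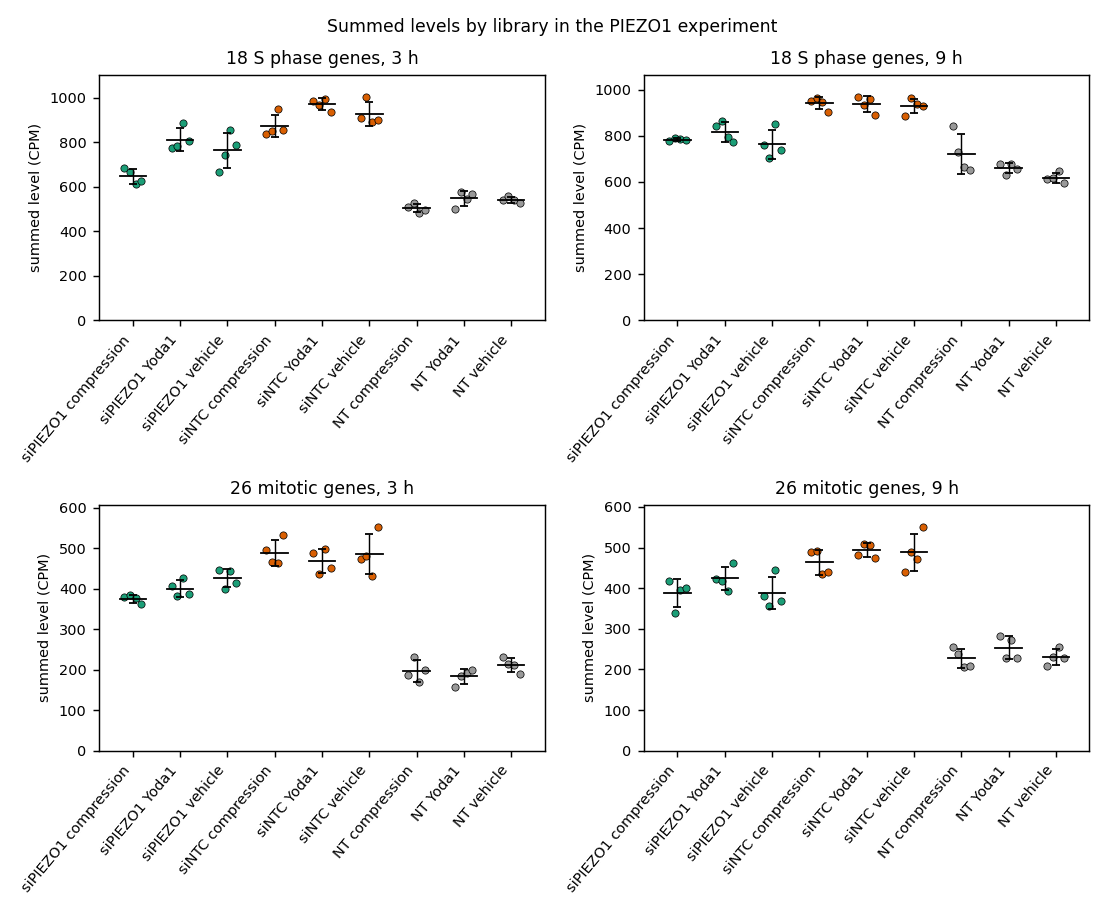
Summed level (CPM, linear axis from 0) of the 18 S phase and of the 26 mitotic genes in the PIEZO1 experiment at 3 h and 9 h, by transfection state and stimulus, with 1 point per library, a line at the mean and a bar of 1 SD. In vehicle at 3 h the mitotic sum runs from 400 to 446 CPM in siPIEZO1, from 432 to 551 CPM in siNTC and from 190 to 230 CPM in NT.

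Division genes were also higher in siNTC than in NT cells when both were compressed or given Yoda1. With compression at 3 h, 38 genes were higher in siNTC than in NT cells (7.92% of all genes changed, 3.9% higher), and with Yoda1 at 3 h also 38 (11.1% changed, 5.09% higher). At 9 h there were 31 with compression (7.23% changed, 3.04% higher) and 34 with Yoda1 (5.47% changed, 2.6% higher). With compression at 9 h these held 8 of the 18 S phase genes (median 0.49) and 23 of the 26 mitotic genes (median 1.16), and 10 of 54 further replication genes were higher. Whether the difference depended on the stimulus was not tested. Across these 6 siNTC to NT comparisons, which use separate libraries, 26 of 44 members (59.1%) were higher every time, against 137 of 17747 genes (0.772%). They were 21 of the 26 mitotic genes and 5 of the 18 S phase genes, namely MCM3, MCM4, RRM2, UHRF1 and E2F1. The 5 mitotic genes missing from that count were CENPE, BUB1B, PRC1, ECT2 and FOXM1.

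Cells given siPIEZO1 stood on the same side of NT cells. In vehicle 35 genes were higher at 3 h (16.8% of all genes changed, 9.86% higher) and 33 at 9 h (23.5% changed, 12.3% higher). With compression 32 were higher at 3 h (21.8% changed, 11.8% higher), while at 9 h 25 were higher and MCM6 was lower (17.1% changed, 8.75% higher). With Yoda1 there were 38 at 3 h (14.0% changed, 7.75% higher) and 32 at 9 h (20.5% changed, 10.4% higher). In all, 22 of 44 members were higher in all 6 siPIEZO1 to NT comparisons, against 2.59% of all genes. MKI67 had 2.48, 2.55, 2.87 and 4.82 CPM in siPIEZO1 vehicle at 3 h, above every NT vehicle library (1.90 ± 0.33). The siNTC and siPIEZO1 comparisons share the NT libraries and are not independent of each other.

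**Figure D2:**
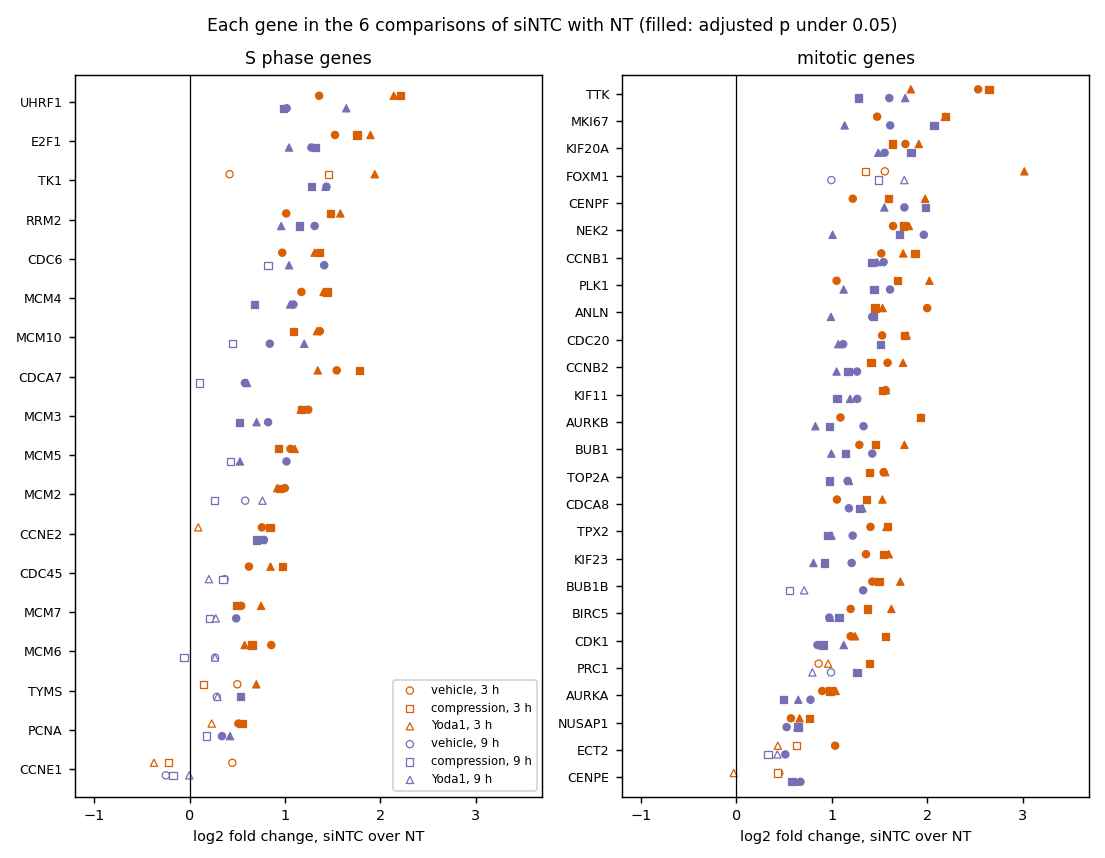
Change of each of the 44 genes in siNTC against NT cells (log2 fold change, horizontal axis) in the 6 comparisons of matched stimulus and time, with filled points where the adjusted p was under 0.05. Nearly all points lie right of 0, and 26 of 44 genes, 21 of them mitotic, are filled in all 6.

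Other genes of the same processes, from lists that do not hold the members, were counted beside them. These lists, like the members, were chosen with earlier results of these data known. Of 53 further replication genes tested at 3 h, 27 were higher and 0 lower in siNTC vehicle than in NT vehicle cells, led by the polymerase gene POLE (1.93 ± 0.33) and the replication ubiquitin ligase gene DTL (1.68 ± 0.26). Of 61 further mitotic genes 41 were higher and 0 lower, among them TROAP (2.35 ± 0.37) and MELK (1.78 ± 0.27). At 9 h the counts were 25 of 54 and 40 of 62, again with 0 lower. Of the genes that control entry into the cycle 6 of 22 were higher at 3 h, with MYBL2 at 1.17 ± 0.35 and RBL1 at 1.00 ± 0.21, and 1 of 22 (CDK2) at 9 h. Among 18 brakes on the cycle, 2 were higher and 0 lower at 9 h. At 3 h 3 brakes were higher and 1 lower, the last being the CDK inhibitor CDKN1C (-1.0 ± 0.19). Cyclin D1 (CCND1, 0.32 ± 0.18) and MYC (0.03 ± 0.15) did not pass. The CDK inhibitor gene CDKN1A had 195, 226, 228 and 238 CPM in siNTC at 3 h, against 204, 235, 220 and 225 CPM in NT, and the groups overlapped.

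In vehicle at 3 h fibroblast and chondrocyte marker sums also differed between the transfection states, and both were highest in NT cells. The summed level of 7 fibroblast markers was 228 to 414 CPM in siPIEZO1 vehicle at 3 h, 735 to 806 CPM in siNTC and 1323 to 1430 CPM in NT, and none of these ranges overlapped. Of these markers 3 of 7 were lower in siNTC than in NT at each time. Of 10 chondrocyte markers 2 were higher and 2 lower in siNTC than in NT at 9 h. At 3 h 2 of 10 were higher and 4 lower. The summed level of these 10 markers at 3 h was 15350 to 21715 CPM in siPIEZO1, 27331 to 28202 CPM in siNTC and 33016 to 36552 CPM in NT. Leukocyte markers summed to 12.3 to 32.7 CPM in siNTC and 9.71 to 27.0 CPM in NT. In this experiment CD14 held 3.91 to 55.3 CPM and CD68 at most 4.01 CPM, while PTPRC was at most 0.56 CPM and TYROBP at most 0.25 CPM in any library. The part of these shifts in the result was not tested. In bulk samples, more dividing cells and more of these transcripts per dividing cell cannot be told apart.

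Between the 2 siRNAs the difference was small and ran the other way. At 3 h in vehicle, 3 S phase genes were lower in siPIEZO1 than in siNTC cells and 0 of the mitotic genes changed (2.53% of all genes lower, 5.07% changed). CCNE2 had 7.23, 7.63, 9.73 and 8.91 CPM in siPIEZO1, against 12.8, 13.5, 13.6 and 14.8 CPM in siNTC (-0.70 ± 0.17, adjusted p = 0.010, edgeR). CDCA7 was lower by -0.58 ± 0.17 and MCM6 by -0.51 ± 0.11. Of the mitotic estimates 25 of 26 were below 0, with a median of -0.18. CDKN1A, whose product holds CDKs inactive, had 333, 335, 397 and 337 CPM in siPIEZO1 at 3 h, against 195, 226, 228 and 238 CPM in siNTC, and no library overlapped (0.66 ± 0.09, adjusted p = 1.1e-06).

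At 9 h, 10 genes were lower in siPIEZO1 vehicle than in siNTC vehicle cells and 0 higher (6.03% of all genes lower, 10.8% changed). ANLN had 26.0, 25.4, 31.7 and 21.6 CPM in siPIEZO1, against 38.3, 43.8, 45.6 and 46.0 CPM in siNTC and 13.9, 15.5, 16.7 and 18.6 CPM in NT. It was thus lower in every siPIEZO1 library than in any siNTC library (-0.73 ± 0.15, adjusted p = 0.00079, edgeR) and still above every NT library. PCNA had 190, 160, 194 and 166 CPM in siPIEZO1, against 228, 224, 251 and 261 CPM in siNTC, without overlap (-0.44 ± 0.07). The other S phase genes were CDCA7 (-0.75 ± 0.17), MCM6 (-0.45 ± 0.09), RRM2 (-0.37 ± 0.13) and MCM3 (-0.35 ± 0.10), and the other mitotic ones KIF11 (-0.70 ± 0.23), TOP2A (-0.54 ± 0.18), AURKB (-0.53 ± 0.15) and ECT2 (-0.49 ± 0.15). MCM5 (0.13 ± 0.14) and MKI67 (0.11 ± 0.34) did not pass. The count fell to 4 without replicate 4 of siNTC vehicle and was 15 without replicate 3 of siPIEZO1 vehicle. Fibroblast markers were lower in siPIEZO1 than in siNTC for 5 of 7 at 3 h and 6 of 7 at 9 h, and their part in this difference was not tested.

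With compression, 12 genes were lower in siPIEZO1 than in siNTC cells at 3 h (2.81% of all genes lower, 6.22% changed; 6 to 10 genes when 1 library was left out). CCNB1 had 17.7, 17.7, 23.0 and 18.6 CPM in siPIEZO1 with compression, against 33.3, 33.7, 32.4 and 40.9 CPM in siNTC with compression, with a wide gap between the groups (-0.86 ± 0.18, adjusted p = 0.0024, edgeR). KIF20A (-0.71 ± 0.20), RRM2 (-0.68 ± 0.12), CDCA7 (-0.67 ± 0.17) and CDC45 (-0.64 ± 0.13) were the next in size. With Yoda1 at 3 h 3 genes were lower (MCM7, RRM2 and BIRC5; 2.41% of all genes lower, 5.72% changed). At 9 h 6 were lower and 1 higher with compression (2.41% of all genes lower, 5.86% changed), and 3 were lower and 1 higher with Yoda1 (3.84% lower, 7.45% changed). Leaving out 1 library gave 3 to 6 genes called in all with compression and 2 to 4 with Yoda1 at 9 h, and 1 to 4 with Yoda1 at 3 h.

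The gene that was higher was TK1, the salvage enzyme for thymidine, in both cases. At 9 h TK1 had 9.19, 14.1, 11.1 and 11.0 CPM in siPIEZO1 cells with compression, 3.10, 4.78, 6.36 and 1.90 CPM in siPIEZO1 cells with Yoda1, and 1.46, 0.842, 1.12 and 2.08 CPM in siPIEZO1 vehicle. In siNTC cells it had 0.907, 3.20, 3.95 and 1.93 CPM with compression, 1.5, 1.46, 1.46 and 1.05 CPM with Yoda1, and 1.34, 1.00, 0.984 and 1.67 CPM in vehicle. The 4 siPIEZO1 libraries with compression were all above the libraries of the other groups given here, the nearest being a siPIEZO1 library with Yoda1 at 6.36 CPM. Compression raised TK1 by 3.05 ± 0.42 in siPIEZO1 cells (adjusted p = 8e-06, edgeR), and it was the 1 member of 44 that passed there (1.34% of all genes higher, 2.18% changed). The other nucleotide genes did not share this pattern: RRM2 was lower in siPIEZO1 than in siNTC cells with compression at 9 h (-0.57 ± 0.13), and TYMS gave -0.09 ± 0.13. In Yoda1-treated siPIEZO1 cells TK1 (1.56 ± 0.40, adjusted p = 0.028) and ANLN (0.55) passed against vehicle (1.7% of all genes higher, 2.54% changed), and 0 to 2 genes did when 1 library was left out and 0 in a fit of those 2 groups alone. The interaction of siRNA and compression at 9 h had 0 members past the threshold in edgeR (1.09% of all genes; 5 members at an unadjusted p under 0.05). For TK1 it gave 2.06 ± 0.56 (adjusted p = 0.061), and DESeq2 called 2 members, TK1 and ANLN, so whether its response to compression differed between siPIEZO1 and siNTC cells depended on the tool. The other 3 interactions of siRNA and stimulus also had 0 members (0.0% of all genes for compression at 3 h, 0.938% and 0.0269% for Yoda1 at 3 h and 9 h; 3, 4 and 2 members at an unadjusted p under 0.05; DESeq2 0, 1 and 0).

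Compression of non-transfected cells changed few of these genes. At 9 h 3 members were higher in NT cells with compression than in NT vehicle cells (2.15% of all genes higher, 3.51% changed), and all 3 encode subunits of the replicative helicase. MCM5 had 64.9, 70.1, 55.5 and 58.1 CPM with compression, against 36.8, 38.0, 34.5 and 27.3 CPM in vehicle (0.86 ± 0.14, adjusted p = 0.00038, edgeR). MCM4 had 22.3, 28.5, 20.4 and 18.8 CPM, against 17.2, 15.6, 11.7 and 9.68 CPM in vehicle (0.73 ± 0.15), and MCM3 was higher by 0.41 ± 0.10. MCM5 and MCM4 did not overlap between the groups. Of the 18 S phase estimates 16 were above 0 with a median of 0.37, while the mitotic estimates split into 13 above and 13 below with a median of 0.01. The summed S phase level was 844, 729, 665 and 653 CPM with compression, against 614, 616, 646 and 594 CPM in vehicle, with replicate 1 of the compressed libraries highest. Leaving out 1 library gave 1 to 4 genes, and a fit of those 2 groups alone gave 1, MCM5. Of 54 further replication genes 3 were higher, namely POLD1 (1.34 ± 0.36), FEN1 (1.01 ± 0.22) and RFC5 (0.41 ± 0.11), and of 62 further mitotic genes 0.

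At 3 h compression of NT cells gave lower PLK1 (-0.95), AURKB (-0.81) and RRM2 (-0.55) and higher ANLN (0.66), 4 of 44 where 6.27% of all genes changed. Yoda1 lowered CENPF in NT cells at 3 h (-0.96; 0.0709% of all genes lower, 0.409% changed; not called when any of 6 of the 8 libraries was left out) and CCNE2 (-0.60) and CENPE (-0.66) in siNTC cells (3.93% of all genes lower, 5.4% changed). Neither CCNE2 nor CENPE passed without replicate 2 of siNTC Yoda1, the library low in PCNA, nor without replicate 1, 2 or 3 of siNTC vehicle, and 1 gene passed without replicate 4 of siNTC vehicle. The remaining comparisons of a stimulus with vehicle had 0 members past the threshold. They were compression in siNTC cells at 3 h (0.911% of all genes; 1 member at an unadjusted p under 0.05) and 9 h (6.43%; 5 members), compression (0.6%; 8 members) and Yoda1 (0.262%; 3 members) in siPIEZO1 cells at 3 h, and Yoda1 at 9 h in NT (0.0%; 8 members) and siNTC cells (0.0%; 0 members). DESeq2 called 3 members for compression in siPIEZO1 cells at 3 h, 2 for compression in siNTC cells at 9 h and 0 in the rest.

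In the TRPV4 experiment 11 S phase genes fell under GSK205 at 9 h, and 5 rose under loading. With GSK205, 11 of the 18 S phase genes were lower than in DMSO and 0 higher, all 18 estimates were below 0, and their median was -0.55. Only 2 of the 26 mitotic genes were lower (KIF20A, -0.60 ± 0.19, and the spindle assembly factor TPX2, -0.47 ± 0.17), and the mitotic median was -0.24. Together that is 13 of 44, where 9.15% of all genes were lower and 21.2% changed. Whether S phase genes differ in this from mitotic genes was not tested.

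Helicase subunit genes and UHRF1 were among those that fell. MCM3 had 8.95, 10.3, 9.37 and 10.3 CPM in GSK205 libraries at 9 h, against 13.8, 16.2, 15.6 and 14.3 CPM in DMSO (-0.63 ± 0.08, adjusted p = 2.8e-07, edgeR). MCM2 had 7.07, 5.31, 5.94 and 5.93 CPM in GSK205, against 13.6, 11.7, 10.6 and 11.2 CPM in DMSO (-0.96 ± 0.12). UHRF1, which guides the maintenance methyltransferase to newly copied DNA, had 1.43, 3.08, 2.11 and 2.15 CPM in GSK205, against 4.65, 5.53, 5.21 and 4.77 CPM in DMSO (-1.21 ± 0.20). In each of the 3 the highest GSK205 library was below the lowest DMSO library. TK1 (-0.82 ± 0.18), CDCA7 (-0.71 ± 0.11), E2F1 (-0.55 ± 0.11), MCM4 (-0.55 ± 0.10) and MCM5 (-0.56 ± 0.08) were also lower. PCNA (-0.09 ± 0.06) and MKI67 (-0.48 ± 0.21, adjusted p = 0.11) did not pass. Leaving out 1 library gave 12 to 15 genes.

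Loading alone raised 5 S phase genes and 0 mitotic genes against DMSO at 9 h (12.5% of all genes higher, 23.7% changed), a share of members no larger than that of all genes. They were MCM3 (0.49 ± 0.07), MCM4 (0.36 ± 0.09), MCM2 (0.32 ± 0.11), MCM6 (0.30 ± 0.05) and PCNA (0.23 ± 0.06). MCM3 had 20.5, 22.4, 21.0 and 20.2 CPM with loading, all above the DMSO libraries given before. UHRF1 (-0.22 ± 0.19) and CDCA7 (-0.14 ± 0.10) did not pass.

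Loading in the presence of GSK205 was compared with each of its parts. Against GSK205 alone, 9 S phase genes were higher at 9 h and 0 mitotic genes changed (8.82% of all genes higher, 18.0% changed). MCM3 had 16.7, 17.4, 16.7 and 17.1 CPM with loading and GSK205 (0.80 ± 0.07 above GSK205 alone). UHRF1 had 3.82, 3.29, 4.27 and 3.77 CPM (0.79 ± 0.20), MCM2 9.02, 10.2, 11.7 and 9.93 CPM (0.75 ± 0.12), and CDC6, at 0.697 to 1.42 CPM, gave 1.16 ± 0.35. For MCM3, MCM2 and UHRF1 every library with loading and GSK205 was above every library with GSK205 alone. Against loading alone, 4 S phase genes were lower (1.99% of all genes lower, 4.1% changed): MCM2 (-0.52), MCM4 (-0.38), MCM3 (-0.31) and MCM7 (-0.21), with 2 to 4 genes when 1 library was left out.

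The interaction asks whether loading acted differently with GSK205 present. It passed for 2 members at 9 h, UHRF1 (1.01 ± 0.28) and CDCA7 (0.61 ± 0.15), whose response to loading was more positive with GSK205 than without it (2.22% of all genes, 4.64% changed). Leaving out 1 library gave 1 to 3 genes. For MCM2 (0.44 ± 0.16), MCM3 (0.32 ± 0.10) and MCM4 (0.17 ± 0.13) the interaction did not pass. The summed S phase level was 257 to 274 CPM with loading and GSK205, 299 to 314 CPM with loading, 208 to 216 CPM with GSK205 and 264 to 273 CPM in DMSO. The DMSO and GSK205 libraries each enter several of these comparisons.

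**Figure D3:**
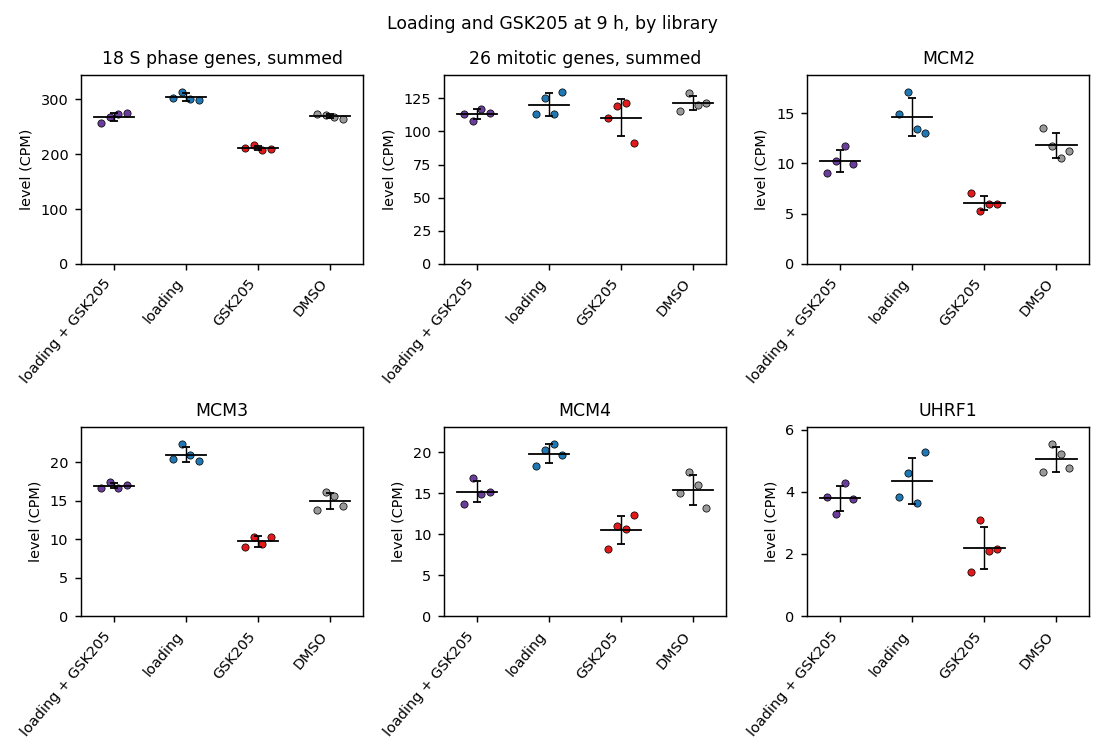
Level (CPM, linear axes from 0) at 9 h with loading and GSK205, loading, GSK205 and DMSO, for the summed S phase genes, the summed mitotic genes, MCM2, MCM3, MCM4 and UHRF1, with 1 point per library, a line at the mean and a bar of 1 SD. GSK205 libraries are lowest for the S phase sum (208 to 216 CPM) and loading libraries highest (299 to 314 CPM), while the mitotic sums overlap.

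Genes around the members gave the following counts. With GSK205 at 9 h, 13 of 53 further replication genes were lower and 2 higher, among them EXO1 (-1.04 ± 0.35), and 12 of 60 further mitotic genes were lower and 2 higher. Of 18 brakes 11 were higher and 1 lower. CDKN1A had 180, 161, 170 and 172 CPM in GSK205, against 124, 116, 128 and 120 CPM in DMSO (0.48 ± 0.05), and 113, 105, 116 and 111 CPM with loading and GSK205. CCND1 (-0.09 ± 0.09) and MYC (0.12 ± 0.06) did not pass with GSK205. Loading raised 9 of 53 replication genes and lowered 1. Loading with GSK205, against GSK205 alone, raised 14 of 53 replication genes and lowered 7 of 18 brakes. The chondrocyte marker sum was 71368 to 80982 CPM in GSK205 libraries and 84337 to 88776 CPM in DMSO, with 1 of 10 markers higher and 2 lower. The part of this in the result was not tested.

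At 3 h fewer members passed, and the responses to GSK205 or loading at 9 h and 3 h were not tested against each other. GSK205 changed 4 of 43 genes tested (27.1% of all genes), of which CDCA7 was the largest. CDCA7 had 7.11, 6.64, 7.41 and 7.12 CPM in GSK205 at 3 h, against 18.8, 13.6, 15.5 and 13.7 CPM in DMSO, a clear gap (-1.12 ± 0.10). MCM3 (-0.35) and AURKA (-0.55) were lower and NUSAP1 (0.20) higher, the last not passing with other size factors (RLE) or in DESeq2. Of 54 further replication genes 11 were lower and 1 higher with GSK205 at 3 h, and of 61 further mitotic genes 10 were lower and 0 higher. Loading changed 3 genes at 3 h (10.2% of all genes), with CDCA7 (-0.35) and MCM4 (-0.33) lower and PCNA (0.26) higher. Loading with GSK205 differed from loading only in CDCA7 (-0.98 ± 0.10; 8.16% of all genes lower, 15.3% changed) and from GSK205 only in PCNA (0.25 ± 0.05; 7.58% of all genes higher, 11.9% changed). The interaction had 0 members past the threshold at 3 h (2.25% of all genes; 2 members at an unadjusted p under 0.05; DESeq2 0).

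GSK101 and IL-1 changed most of the transcriptome by 9 h, and the division genes split in direction. With GSK101 26 of 44 members changed, where 62.3% of all genes did: 3 S phase genes were higher and 10 lower, and 6 mitotic genes were higher and 7 lower. With IL-1 29 of 44 changed, where 65.1% of all genes did: 7 S phase genes were higher and 10 lower, and 3 mitotic genes were higher and 9 lower. The share of members called is near that of all genes in both, so the counts say little and the individual genes carry the description. Both comparisons use the same DMSO libraries.

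CDCA7 fell furthest. At 9 h CDCA7 had 0.846, 1.47, 2.21 and 1.32 CPM in GSK101 libraries and 0.661, 0.497, 0.859 and 0.565 CPM in IL-1 libraries, against 23.8, 21.1, 24.5 and 26.0 CPM in DMSO. Every treated library was far below every DMSO library, and the change was -4.02 ± 0.14 with GSK101 and -5.24 ± 0.15 with IL-1. At 3 h CDCA7 had 9.41, 8.06, 9.59 and 9.67 CPM in GSK101 and 9.93, 10.4, 11.9 and 11.2 CPM in IL-1, against 18.8, 13.6, 15.5 and 13.7 CPM in DMSO. The response at 9 h was larger than at 3 h by -3.23 with GSK101 and -4.71 with IL-1, both past the test of that difference.

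The helicase subunit genes MCM2 and MCM5, and MCM10, whose product helps to activate the helicase, were split. MCM2 had 5.82, 4.03, 5.58 and 5.36 CPM in GSK101 at 9 h and 4.89, 4.05, 5.16 and 4.38 CPM in IL-1, against 13.6, 11.7, 10.6 and 11.2 CPM in DMSO, and was lower in both (-1.19 ± 0.12 and -1.36 ± 0.12). MCM5 had 15.3, 14.9, 16.9 and 17.6 CPM in GSK101 and 36.3, 36.2, 33.4 and 38.1 CPM in IL-1, against 22.5, 18.9, 20.6 and 19.5 CPM in DMSO. It was lower with GSK101 (-0.33 ± 0.08) and higher with IL-1 (0.82 ± 0.08), and GSK101 differed from IL-1 by -1.15 ± 0.08. MCM10 had 3.17, 2.49, 1.88 and 2.60 CPM in GSK101 and 5.13, 6.26, 7.09 and 6.30 CPM in IL-1, against 2.58, 3.02, 1.75 and 1.84 CPM in DMSO. The rise with IL-1 (1.42 ± 0.20) set MCM10 apart from GSK101, where it did not pass (0.13 ± 0.22).

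Other S phase genes moved alike or apart between the agents. PCNA was higher in both, at 55.4 to 58.1 CPM in GSK101 and 69.9 to 75.4 CPM in IL-1, against 40.8 to 44.1 CPM in DMSO. Cyclin E1 (CCNE1) was also higher in both (0.82 ± 0.22 and 1.18 ± 0.21), and TK1 (-1.32 ± 0.20 and -1.16 ± 0.18), CDC45 (-1.24 ± 0.15 and -0.93 ± 0.14) and UHRF1 (-0.98 ± 0.20 and -0.80 ± 0.19) were lower in both. CCNE2 and CDC6 were higher with IL-1 (0.83 ± 0.20 and 0.91 ± 0.31) and did not pass with GSK101. Compared directly at 9 h, GSK101 was below IL-1 in CCNE2 by -1.05 and in CDC6 by -0.99. In all, 19 of 44 members differed between GSK101 and IL-1 at 9 h, where 53.8% of all genes did, and 12 of 43 at 3 h (41.5%).

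**Figure D4:**
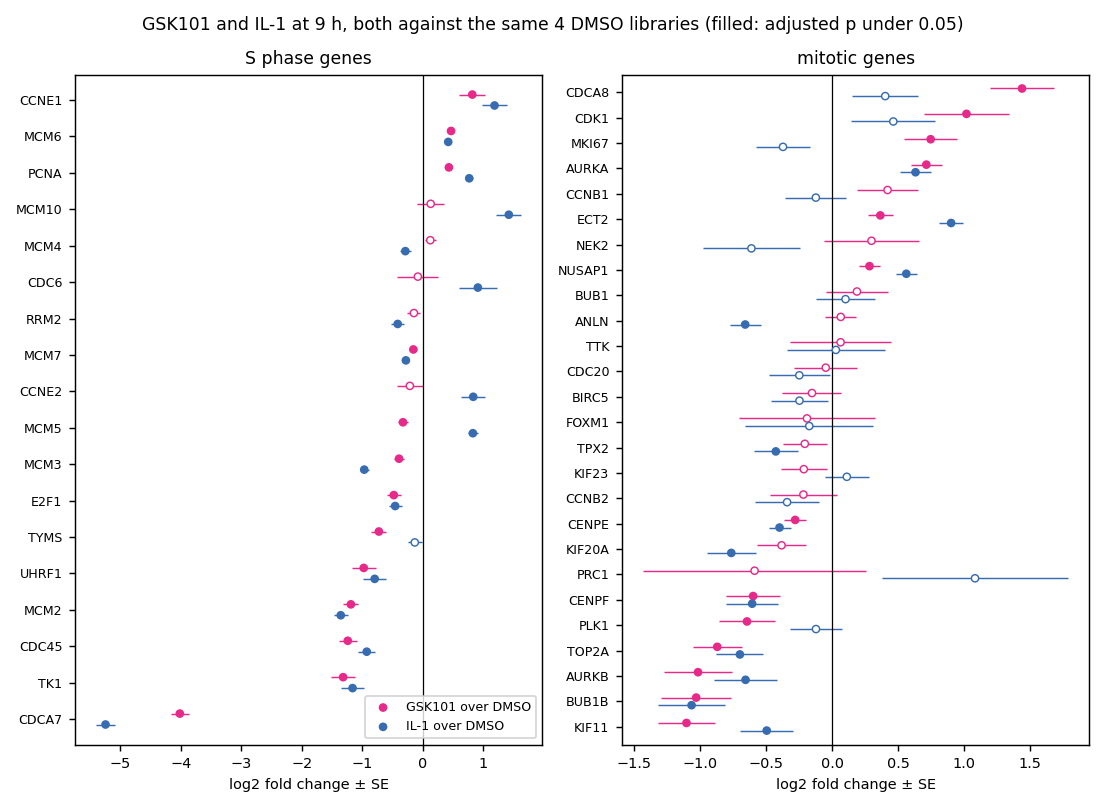
Change of each of the 44 genes at 9 h with GSK101 and with IL-1, both against the same DMSO libraries (log2 fold change, horizontal axis; bars are 1 standard error). CDCA7 lies far to the left in both (-4.02 and -5.24), and MCM5 lies on opposite sides of 0 (-0.33 and 0.82).

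Among the mitotic genes MKI67 had 6.61, 4.84, 7.08 and 4.72 CPM in GSK101 at 9 h and 2.45, 2.56, 2.40 and 3.17 CPM in IL-1, against 3.23, 3.56, 4.33 and 2.67 CPM in DMSO. The GSK101 libraries were above all others, whereas IL-1 and DMSO overlapped. MKI67 was higher with GSK101 than in DMSO (0.75 ± 0.20, adjusted p = 0.0019, edgeR) and than with IL-1 (1.12 ± 0.20). CDCA8, which encodes the borealin subunit of the chromosomal passenger complex, had 3.17, 3.43, 4.43 and 3.00 CPM in GSK101 and 1.95, 1.74, 1.86 and 1.33 CPM in IL-1, against 1.24, 1.62, 1.16 and 1.11 CPM in DMSO. It was raised by 1.44 ± 0.25 with GSK101 at 9 h, where the IL-1 and DMSO libraries overlapped. At 3 h it was raised by 1.25 with IL-1 (2.74, 2.36, 2.94 and 3.41 CPM in IL-1, against 0.941, 1.35, 1.09 and 1.38 CPM in DMSO). With GSK101 at 3 h CDCA8 did not pass. CDCA8 overlaps EPHA10 on the genome, and AURKA overlaps CSTF1, so their reads may be shared.

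With GSK101 at 9 h AURKB, the kinase of the same complex, moved the other way from CDCA8 (-1.02 ± 0.25). With IL-1 at 9 h AURKB gave -0.66 ± 0.24. TOP2A (-0.87 ± 0.19 and -0.70 ± 0.18) and the checkpoint gene BUB1B (-1.03 ± 0.26 and -1.06 ± 0.25) were lower with both agents. CDK1 was higher with GSK101 (1.02 ± 0.32) at a low level, 1.32, 2.45, 1.93 and 1.96 CPM, against 0.981, 0.872, 1.02 and 0.953 CPM in DMSO. KIF11 had 1.06, 2.03, 1.93 and 1.92 CPM in GSK101, against 2.94, 4.56, 4.15 and 3.40 CPM in DMSO, and did not overlap (-1.10 ± 0.22). With IL-1, the cleavage furrow gene ECT2 was higher (0.90 ± 0.09) while ANLN (-0.66 ± 0.12) and KIF20A (-0.76 ± 0.18) were lower. The summed levels hid this spread: the mitotic sum was 110 to 128 CPM in GSK101 and 112 to 128 CPM in IL-1, against 115 to 129 CPM in DMSO, and all 3 ranges overlapped.

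**Figure D5:**
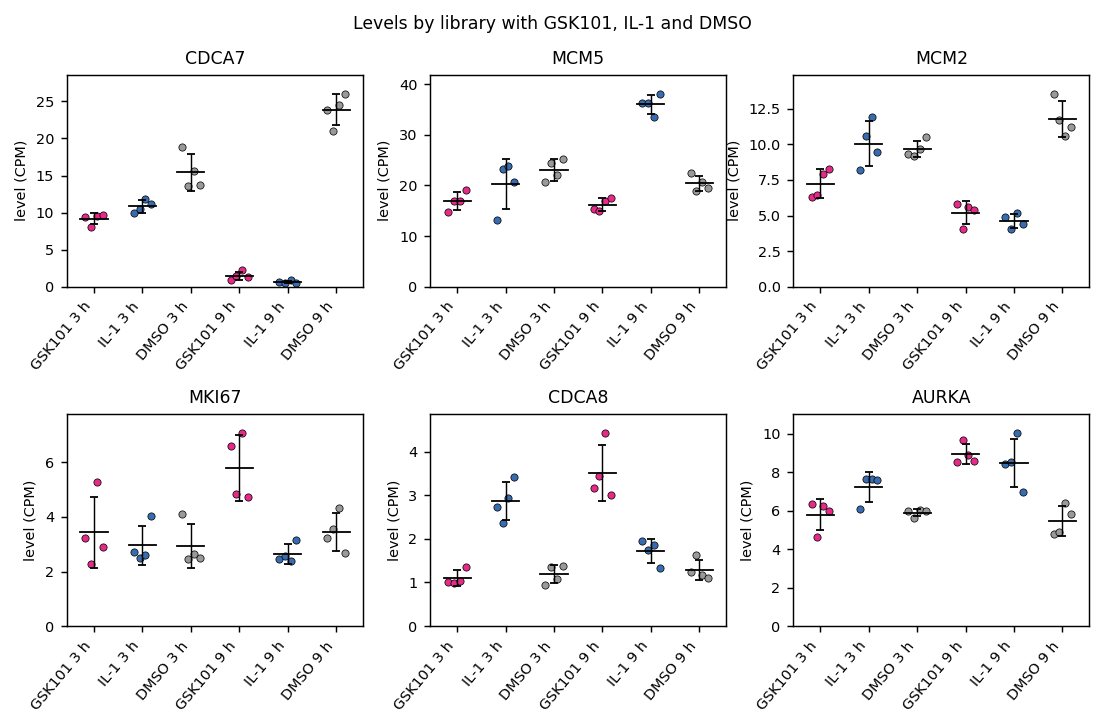
Levels (CPM, linear axes from 0) of CDCA7, MCM5, MCM2, MKI67, CDCA8 and AURKA in GSK101, IL-1 and DMSO libraries at 3 h and then 9 h, with 1 point per library, a line at the mean and a bar of 1 SD. At 9 h CDCA7 is at 0.846 to 2.21 CPM in GSK101 and 0.497 to 0.859 CPM in IL-1, against 21.1 to 26.0 CPM in DMSO.

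At 3 h GSK101 changed 11 of 43 members (40.0% of all genes) and IL-1 10 (32.2%). With GSK101 MCM3 had 7.46, 7.13, 8.56 and 7.30 CPM, against 16.9, 11.1, 12.1 and 15.1 CPM in DMSO, without overlap (-0.86), and TK1 (-0.62), TYMS (-0.62), MCM5 (-0.44) and TOP2A (-0.57) were lower while NUSAP1 was higher (0.23). With IL-1 MCM10 (0.54), ECT2 (0.47) and NUSAP1 (0.31) were higher and TK1 was lower (-0.55). Library totals were 62677053 to 80223797 for GSK101 at 3 h and 20651530 to 29904509 for DMSO at 3 h, so the DMSO values of low genes rest on fewer counts. The response differed between 9 h and 3 h for 12 members with GSK101 (45.8% of all genes) and for 17 with IL-1 (38.8%), among them CCNB1 with GSK101 (1.25) and CCNE1 with IL-1 (1.48).

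Some regulators outside the members moved apart between the agents and others moved alike. Cyclin D1 (CCND1), which couples growth signals to the cycle, had 124, 125, 126 and 124 CPM in GSK101 at 9 h and 7.61, 4.94, 5.41 and 6.62 CPM in IL-1, against 22.8, 20.4, 15.9 and 18.6 CPM in DMSO. The 3 groups were apart in every library (2.68 ± 0.09 with GSK101 and -1.67 ± 0.10 with IL-1). MYC moved in the same directions, at 0.49 and -1.56. CDKN1A was higher with both (1.24 with GSK101 and 1.19 with IL-1), and the CDK4 and CDK6 inhibitor gene CDKN2B rose by 3.02 ± 0.16 with IL-1. The atypical repressor E2F7, which shuts down E2F targets, rose by 4.59 ± 0.21 with IL-1. For CDKN2B and E2F7 no GSK101 value is given here, so they do not compare the agents. Of 18 brakes 12 were higher and 4 lower with GSK101 at 9 h, and 11 higher and 6 lower with IL-1. Of 22 genes that control entry into the cycle 8 were higher and 7 lower with GSK101, and 10 higher and 8 lower with IL-1. Of 53 further replication genes 10 were higher and 22 lower with GSK101, and 10 higher and 24 lower with IL-1. At 9 h leukocyte markers summed to 24.6 to 32.2 CPM in GSK101 and 88.6 to 98.3 CPM in IL-1, against 27.6 to 35.4 CPM in DMSO. CD14 made up most of these sums and reached 95.5 CPM. Of that list 1 of 3 genes tested rose and 1 fell with IL-1, and PTPRC was at most 0.33 CPM, CD3E 0.32 CPM and TYROBP 0.11 CPM in any library. The part of these markers in the result was not tested.

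Some members differed between the 9 h and 3 h harvests in unstimulated cells, in DMSO a share near that of all genes. In DMSO 10 genes differed at 9 h from 3 h (22.2% of all genes; 6 to 11 when 1 library was left out), with CDCA7 (0.58), ANLN (0.67), KIF20A (0.58) and TPX2 (0.54) higher and MCM4 (-0.46) and TYMS (-0.37) lower. In NT vehicle cells 11 differed (16.1%; 7 to 12), with TTK (1.57), CDCA7 (1.18), ECT2 (0.80), CDC45 (0.78), ANLN (0.74) and TOP2A (0.71) higher and CDC6 (-0.84), CCNE2 (-0.73) and CCNB1 (-0.56) lower. CDCA7 and ANLN were thus higher at 9 h than at 3 h in both experiments, while most members did not pass in either.

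How closely the genes moved together was described by correlating group means with the mean profile of each class, with no test, since the groups share libraries, time and medium. Each member is itself part of its class mean, which favours a high value. The PIEZO1 profiles also hold the difference between transfected and NT cells described above. In the PIEZO1 experiment, over 9 group means, the members' median correlation with their class profile was 0.95 for S phase and 0.97 for mitotic genes at 3 h, and 0.85 and 0.97 at 9 h. In the TRPV4 experiment, over 6 group means, it was 0.35 and 0.51 at 3 h and 0.60 and 0.43 at 9 h. The genes outside the list with the most similar profile to the mitotic genes in the PIEZO1 experiment at 3 h were CKAP2, STMN1, C4orf46, CDCA3 and CENPN, and GINS1, UBR7, BLM and ERCC6L were among the 5 nearest to the S phase genes. In the TRPV4 experiment at 9 h the nearest to the S phase profile were PRDX3, STMN3, TM7SF2, ZNF883 and MRPL13, and to the mitotic profile DPCD, CPXM1, BEGAIN, SGO1 and TRIT1. At 3 h there the nearest were GON4L, FKBP15, OXLD1, CCDC71 and RANBP6 for S phase, and FJX1, ADORA1, TTPAL, RANBP3 and C1QTNF6 for mitotic genes. GON4L reached 0.99, where the S phase members' own median was 0.35. The nearest genes head a ranking of all other named genes tested over few group means, so their nearness says little.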

How the data were processed

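The authors deposited 1 table of raw counts, whole numbers of reads per gene and library. Per the submitters' processing notes, Trim Galore trimmed the reads, STAR aligned them (build Sscrofa11.1) and HTSeq counted them. The sources used here give no version, annotation or strand setting, so reads of genes that overlap cannot be told apart, which concerns CCNE2, CDCA7, MCM4, MCM7, UHRF1, CDK1, CDCA8, CENPF, KIF20A, KIF23, PLK1, AURKA, AURKB, PRC1 and NUSAP1. MCM5 had no known chromosome and was not checked for overlap. Per the labels' protocols, TRPV4 libraries were made after ribosomal RNA removal with random hexamers, and PIEZO1 libraries with a low-input kit, although polyA RNA is the labelled molecule throughout. The table held 32388 lines, of which 481 repeats were removed. No sequence of the members was at hand.

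Each experiment and time had 1 model, its terms being the groups, fitted in R 4.3.3 with edgeR 4.0.16 (TMM scaling, filterByExpr with a minimum count of 10, quasi-likelihood F test, two-sided). The TRPV4 models tested 16562 genes at 3 h, 16540 at 9 h and 17447 over both times; the PIEZO1 models tested 18330, 18611 and 20202. Benjamini-Hochberg adjustment ran over all genes tested. Standard errors were computed as the absolute log2 fold change over the root of the F statistic. The common biological coefficient of variation was 0.0874 to 0.107 in the TRPV4 experiment and 0.282 to 0.309 in the PIEZO1 experiment, so smaller changes could pass in the TRPV4 experiment. The fit was tested on simulated data. Alternatives were other size factors (RLE), DESeq2 1.42.0, no count filter, the compared groups alone, a replicate block, and leaving out each library.

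The members, the lists of further genes and the comparisons were chosen with earlier results of these data known. In each comparison the text names up to 5 S phase and 5 mitotic members with the largest change among those called, up to 4 called genes of each further list (some are not reported here), and MKI67, TOP2A, CDK1, CCNB1, FOXM1, PCNA, MCM2, CCNE1, CCNE2, CDC6, CDCA7, E2F1, CCND1, MYC and CDKN1A. Members named beyond this, such as AURKA, MCM5 or TYMS where they did not pass, were chosen after their values were seen. The 14 comparisons between transfection states under a stimulus, or of siPIEZO1 with NT cells, were added after the first fits.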

Additional observations from a re-analysis of the deposited data

Results flagged for a closer look

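In groups of 4 libraries, a library was listed where its gap to the nearest other, as a share of the group's range, was above Dixon's 95% critical value for 4 samples. Chance lists about 1 in 20 groups, and 13 of 240 were listed here.

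In the PIEZO1 experiment the summed S phase level was 1003 CPM in replicate 2 of siNTC vehicle at 3 h and 949 CPM in replicate 3 of siNTC compression at 3 h, each the highest of its group and still above every NT library. CDCA7 was 4.532 CPM in replicate 1 of NT Yoda1 at 3 h and MCM5 was 22.85 CPM in replicate 4 of NT compression at 3 h. MKI67 was 4.815 CPM in replicate 4 of siPIEZO1 vehicle at 3 h. CCNB1 was 22.98 CPM in replicate 3 of siPIEZO1 compression at 3 h and 40.89 CPM in replicate 4 of siNTC compression at 3 h, and the groups were apart with or without these libraries.

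In the TRPV4 experiment CDCA7 was 8.062 CPM in replicate 2 of GSK101 at 3 h and 10.5 CPM in replicate 4 of loading at 3 h. MKI67 was 4.236 CPM in replicate 4 of GSK205, 4.036 CPM in replicate 4 of IL-1 and 4.123 CPM in replicate 1 of DMSO, all at 3 h, the last being the library high in mitotic genes. CCNB1 was 1.702 CPM in replicate 2 of loading with GSK205 at 9 h.

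Responses that differed between conditions by a test of the difference were the response to loading with and without GSK205 at 9 h (2 of 44 members, UHRF1 and CDCA7, where 4.64% of all genes differed), the response to GSK101 at 9 h against 3 h (12 members, where 45.8% of all genes differed) and the response to IL-1 at 9 h against 3 h (17 members, where 38.8% of all genes differed), so in each the share of members was near or below that of all genes.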

How the results depend on the processing

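No member's change turned its direction under any alternative. Of 663 changes that passed, 3 were lost with RLE size factors, 2 with DESeq2, 34 with no count filter and 61 when only the compared groups were fitted, where fewer libraries estimate the spread. Leaving out 1 library lost 578 of 5552 values. The counts for siNTC against NT cells moved by less than 1.5 times in all alternatives (37 to 38 genes at 3 h and 33 to 36 at 9 h in vehicle without 1 library).

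The counts that moved by more than 1.5 times were small ones. For GSK205 at 3 h (4) it was 2 with the members named in the table only. With DESeq2 it was 3 for loading with GSK205 against loading at 3 h (1), 2 for Yoda1 in NT cells at 3 h (1), 4 for Yoda1 in siNTC cells at 3 h (2), 3 for compression in siPIEZO1 cells at 3 h (0), 5 for siPIEZO1 against siNTC vehicle at 3 h (3), 6 for siPIEZO1 against siNTC with Yoda1 at 3 h (3), 5 for compression in NT cells at 9 h (3), 2 for compression in siNTC cells at 9 h (0), and 1 and 2 for the interactions of siRNA with Yoda1 at 3 h and with compression at 9 h (0 each). With only the compared groups it was 2 for loading with GSK205 against loading at 3 h, 0 for Yoda1 in siNTC cells at 3 h, 1 for siPIEZO1 against siNTC vehicle at 3 h, 6 for the same with Yoda1 at 3 h, 1 for compression in NT cells at 9 h and 0 for Yoda1 in siPIEZO1 cells at 9 h. With no count filter it was 1 for Yoda1 in siNTC cells at 3 h. The causes were not tested.

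Replicate numbers gave no strong pairing of the libraries. Same-numbered libraries had a median correlation of 0.011 (3 h) and -0.0058 (9 h) with TRPV4 stimuli and 0.0044 and 0.031 in the PIEZO1 libraries. In the same order, 4 of 24, 4 of 24, 10 of 36 and 14 of 36 libraries correlated best with their own number, where chance gives about 1 in 4. In the PIEZO1 libraries at 9 h the median for other numbers was -0.0083, and whether a weak pairing exists there was not tested. With a replicate block 11 of the 663 changes were lost, and the count was 2 for GSK205 at 3 h, 1 for compression in siNTC cells at 9 h, 2 for compression in siPIEZO1 cells at 9 h and 1 for the interaction of siRNA with compression at 9 h.

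Leaving out 1 library gave 2 to 6 genes for GSK205 at 3 h, 1 to 3 and 2 to 4 for loading with GSK205 against loading at 3 h and 9 h, 1 to 3 for the interaction of loading and GSK205 at 9 h, and 6 to 11 for DMSO at 9 h against 3 h. In NT cells it gave 2 to 4 and 1 to 4 for compression at 3 h and 9 h, 0 to 2 for Yoda1 at 3 h and 7 to 12 for 9 h against 3 h. In siNTC cells it gave 0 to 3 for Yoda1 at 3 h and 0 to 2 for compression at 9 h. In siPIEZO1 cells it gave 0 to 2 for compression at 3 h and 0 to 2 for Yoda1 at 9 h. For siPIEZO1 against siNTC it gave 2 to 5 and 4 to 15 in vehicle, 6 to 10 and 3 to 6 with compression, and 1 to 4 and 2 to 4 with Yoda1, at 3 h and 9 h. It gave 0 to 1 for both interactions named above. The search for promoter motifs was not run.

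Counting limits the scarcest members, such as TTK, CDK1, CDC6 and PRC1 in the TRPV4 experiment, where several libraries held under 1 CPM.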
